A study of Homo sapiens with 36 samples.

Results

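EGLN3, ADM, CXCR4 and LOX are genes of the hypoxia response and of blood vessel growth that the study names among the targets of PHF19L whose expression was higher after loss of that protein. They are 4 of 20136 protein-coding genes, and their regions were taken from 20 kb upstream of the gene start to the gene end. Because they were picked among PHF19L targets, a PHF19 region at each of them follows from the choice of genes and is given here as a description.
The cells were DU145, a human prostate cancer line. shCTR cells carried a control short hairpin RNA, and shPHF19L#4 cells carried a hairpin against the long isoform of PHF19, both delivered by lentivirus and kept under puromycin. ChIP-seq, which maps where a protein or histone mark sits on DNA, was examined as 14 peak lists and 5 tables of regions. The peak lists covered PHF19, EZH2 and SUZ12 in shCTR cells and H3K27me3 and MTF2 in both cell types, with 2 replicates of each, which the study calls biological replicates. RNA-seq and the PHF19 libraries of shPHF19L#4 cells were not analysed here, so the depletion itself is not measured in these values. The depth of the libraries is unknown because the lists and tables hold no read totals.

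When oxygen is plentiful, prolyl hydroxylases mark the HIF alpha subunits for destruction, and when it is scarce HIF accumulates and switches on genes for oxygen sensing, metabolism, matrix remodelling and vessel growth. EGLN3 is one of these hydroxylases and is itself induced by HIF. ADM encodes adrenomedullin, a secreted peptide that acts on blood vessels, CXCR4 is the receptor of the chemokine CXCL12 and is used by migrating cells, and LOX is a secreted enzyme that crosslinks collagen and elastin. PHF19 and MTF2 are Polycomb-like proteins that bring PRC2 to CpG-rich DNA. EZH2 is the catalytic subunit of PRC2, SUZ12 one of its core subunits, and H3K27me3 the histone mark it deposits, which is linked to gene silencing.

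The hairpin and the promoters are shown because they define the perturbed transcript and the DNA under the regions described below. The hairpin targets 21 bases, gccacacatttgagagcatca, which were found in 4 annotated transcripts, all of PHF19, of which 3 were among its 8 protein-coding transcripts. In GRCh37 (hg19), EGLN3 starts at position 34420280 of chromosome 14 on the minus strand and spans 26.8 kb and 5 exons. ADM starts at position 10326620 of chromosome 11 on the plus strand and is 2.33 kb long, with 4 exons. CXCR4 starts at position 136875719 of chromosome 2 on the minus strand and is 3.80 kb long, with 2 exons. LOX starts at position 121413954 of chromosome 5 on the minus strand and spans 15.1 kb and 7 exons. ADM was the gene with a close neighbour. The start of SBF2, on the other strand, lay 10.9 kb away, inside the ADM interval, while the nearest other start was 51.3 kb from LOX, 133 kb from CXCR4 and 511 kb from EGLN3. The 250 bases before each start were searched on both strands for ACGTG and GCGTG, the core letters bound by HIF. Of 20132 promoters of this length, 20.4% held ACGTG, 40.2% GCGTG and 51.3% at least 1 of them. The LOX promoter held 4 matches to ACGTG, at -185, -116, -98 and -42 from the start, and none to GCGTG. CXCR4 held 1 match to GCGTG at -39, ADM held 1 to GCGTG at -101, and EGLN3 held none of either. A match is a run of letters and not a bound site, and no match says nothing about sequence outside this window. Capitals mark the matches in the runs that follow, which read 5′ to 3′ on the strand of the gene. Stretches annotated as untranslated in another transcript of the same gene are left out, except for sites of 30 bases around the LOX matches. The ADM run is whole, although its first bases overlap the longest annotated form of SBF2, which starts 196 bp from ADM on the other strand.
EGLN3, bases -250 to -8, chr14:34420288-34420530 (-): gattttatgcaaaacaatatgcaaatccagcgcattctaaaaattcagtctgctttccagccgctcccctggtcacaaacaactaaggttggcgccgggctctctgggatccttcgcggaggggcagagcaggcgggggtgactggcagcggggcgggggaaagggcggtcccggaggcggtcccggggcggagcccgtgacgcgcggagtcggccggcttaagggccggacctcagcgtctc
ADM, bases -250 to -1, chr11:10326370-10326619 (+): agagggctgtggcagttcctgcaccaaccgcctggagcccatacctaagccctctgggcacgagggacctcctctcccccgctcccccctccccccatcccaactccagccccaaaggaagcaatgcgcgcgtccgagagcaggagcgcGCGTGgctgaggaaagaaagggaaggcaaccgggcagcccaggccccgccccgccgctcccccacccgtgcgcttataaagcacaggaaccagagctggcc
CXCR4, bases -250 to -1, chr2:136875720-136875969 (-): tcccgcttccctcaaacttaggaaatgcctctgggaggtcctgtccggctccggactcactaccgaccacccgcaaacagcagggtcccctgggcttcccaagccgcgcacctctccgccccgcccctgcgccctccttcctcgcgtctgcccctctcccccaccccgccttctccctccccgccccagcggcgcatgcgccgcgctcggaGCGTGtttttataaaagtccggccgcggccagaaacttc
LOX, bases -250 to -155, chr5:121414109-121414204 (-): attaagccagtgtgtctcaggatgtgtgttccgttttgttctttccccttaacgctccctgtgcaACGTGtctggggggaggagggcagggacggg
LOX, bases -119 to -90, chr5:121414044-121414073 (-): ttgCACGTttccaatcgcattACGTGaaca
LOX, bases -54 to -25, chr5:121413979-121414008 (-): gtaactttgcaaACGTGccagaaagtttaa

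PHF19 occupied the area around the start of all 4 genes in shCTR cells, in both replicates. The table that compares PHF19 ChIP with input held 1245 regions, and 5.14% of all protein-coding genes had such a region in their interval. Peaks in both PHF19 lists were present at 4 of 4 genes, against 4% of all protein-coding genes and 68% of those with a PHF19 region. A PHF19 region at each gene follows from how the genes were picked, and a peak in both lists was common among such genes. Levels in the tables are the authors' mean log2 read concentration of a group, with no value per replicate, and positions are given in bp from the gene start, negative when upstream.
At EGLN3, the hydroxylase, 1 PHF19 region reached from -2771 to 3080 (chr14:34417200-34423051) and covered the start, 679 bp of exon and 2402 bp of intron. Its log2 level was 8.69 in the ChIP and 7.17 in input, a difference of 1.52. It was wider than 95.7% of the regions in the table, and per kb of width its ChIP level of 6.14 exceeded 92.0% of them. Input was high there as well: the input level per kb of 4.62 exceeded 99.2% of the regions, and its part in the ChIP level was not tested.
ADM, the vessel peptide, had 3 PHF19 regions. The distal one, from -10893 to -9197 (chr11:10315727-10317423), had a log2 difference over input of 2.60, larger than in 91.1% of the table. It covered the annotated start of SBF2 and cannot be assigned to ADM alone. The next region, from -3268 to -102 (chr11:10323352-10326518), had a difference of 2.28 and shared 3073 bp with the longest annotated form of SBF2, whose start lies 196 bp from that of ADM. The region nearest the start, from 26 to 2877 (chr11:10326646-10329497), took in almost the whole gene and had a difference of 1.18, larger than in only 10.1% of the table. PHF19 over input was thus higher upstream of ADM than across its exons, while the input level per kb rose from 3.06 at the distal region to 3.52 and 3.83 at the next ones.
CXCR4, the chemokine receptor, had 2 PHF19 regions with the start between them. The upstream region, from -1809 to -108 (chr2:136875827-136877528), had log2 levels of 5.21 in the ChIP and 3.67 in input. The other, from 330 to 2003 (chr2:136873716-136875389), lay wholly in the intron and had levels of 5.97 and 4.23. The upstream region was called in replicate 2 alone, and its ChIP level per kb of 4.44 exceeded only 0.884% of the regions in the table, which made it the weakest PHF19 region among these genes.
LOX, the matrix enzyme, had 1 PHF19 region from -566 to 1709 (chr5:121412245-121414520), over the start, 1014 bp of exon and 696 bp of intron. Its log2 level was 6.55 in the ChIP and 5.01 in input, a difference of 1.54. Over the table the median difference was 1.58, with 5% of the regions under 1.08 and 5% over 2.92, so that LOX, CXCR4 and EGLN3 were near the middle and ADM held both a low and a high value.

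Apart from a distal EGLN3 peak of replicate 2, the PHF19 peaks of each replicate lay where the table lists its regions. At EGLN3 the peak over the start ran from -351 to 1772 in replicate 1 and from -2771 to 3080 in replicate 2. Its value, which is on a scale of its own in each list, ranked above 90.8% and 97.1% of the peaks in the respective list. The LOX peak ran from -566 to 1602 and from -528 to 1709, and ranked above 69.4% and 92.3% of the peaks. ADM had 3 peaks in each replicate, of which the one ending close to the start ranked above 79.3% and 98.2%. CXCR4 had 1 peak in replicate 1, ranked above 27.1% of its list, and 2 peaks in replicate 2, ranked above 91.2% and 96.6%. Ranks were higher in replicate 2 for the named peaks, in a list of 14218 peaks against 1072 in replicate 1. Because the lists differ in length and scale, this difference in rank says nothing about occupancy. The distal EGLN3 peak, from -15298 to -12832, was listed in replicate 2 alone and overlapped no region of the PHF19 table.

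EZH2 changed upward at all 4 genes after depletion of PHF19L, as it did across its table. The table of EZH2 in shCTR against shPHF19L#4 cells held 2408 regions, and 10.8% of protein-coding genes had one in their interval. Among the 1034 protein-coding genes with a PHF19 region the share was 85.3%, so that 4 of 4 here is close to what the choice of genes gives. The authors listed only regions past their threshold for a difference, and 100% of those regions (2407 of 2408, rounded) were higher in shPHF19L#4 cells, so the upward direction at these genes is that of the whole table. No test was run: the tables hold group means, and an exact test of 2 against 2 libraries cannot go below p = 0.33.
At EGLN3 the EZH2 region reached from -4514 to 6145 (chr14:34414135-34424794), and its log2 level was 8.92 in shCTR and 9.49 in shPHF19L#4 cells. The change of 0.57 was 1.48-fold and was among the smallest of the table, where only 2.62% of the regions changed less. The shCTR level per kb, 5.51, exceeded 95.1% of the regions. Regions whose change did not pass the authors' threshold are missing from both rankings. Among listed regions EGLN3 thus combined a high starting level with a small gain. Input was also high at this start, and no EZH2 peak of shCTR cells covered it.
At ADM the EZH2 region from 153 to 2206 (chr11:10326773-10328826) had log2 levels of 5.36 and 6.47, a change of 1.11. It lay wholly inside the PHF19 region nearest the start, and no EZH2 region was listed over the upstream PHF19 regions, where the PHF19 difference over input was larger.
At CXCR4 the EZH2 region from -169 to 2162 (chr2:136873557-136875888) had levels of 6.13 and 7.36, and its change of 1.23, or 2.35-fold, was the largest of the 4. It took in 100% of the intronic PHF19 region and 3.64% of the upstream one.
At LOX the EZH2 region from -381 to 1985 (chr5:121411969-121414335) had levels of 5.86 and 6.82, a change of 0.96. It overlapped 91.9% of the PHF19 region. With the table's median change of 1.16 subtracted, EZH2 at CXCR4 stayed above the table by 0.07, while ADM, LOX and EGLN3 fell to -0.05, -0.20 and -0.59. These 4 values therefore say that EZH2 gained reads at each gene on the scale of the table, and at EGLN3 less than at most listed regions.

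SUZ12 was listed at EGLN3 alone. Its table held 508 regions, 2.71% of protein-coding genes and 40% of those with a PHF19 region had one, and 100% of its regions were higher in shPHF19L#4 cells. The EGLN3 region from -2395 to 2902 (chr14:34417378-34422675) had log2 levels of 7.75 in shCTR and 8.35 in shPHF19L#4 cells. Its change of 0.60 was larger than in only 1.97% of the table, and, with the median of 0.96 subtracted, came to -0.36. EZH2 and SUZ12, which belong to the same complex, thus both showed a high level per kb and a small change at this gene, among listed regions. Neither had a peak over the EGLN3 start in shCTR cells. Input per kb at this start exceeded 99.2% of the PHF19 table, and its part in these levels was not tested.
MTF2 was listed at LOX and CXCR4. Its table held 2546 regions, of which 99.7% were higher in shPHF19L#4 cells, and 10.2% of protein-coding genes and 81% of those with a PHF19 region had one in their interval. At CXCR4 the MTF2 region from -1907 to 1979 (chr2:136873740-136877626) bridged both PHF19 regions, and its log2 level was 8.26 in shCTR and 9.16 in shPHF19L#4 cells, a change of 0.90 against a table median of 0.87. At LOX the region from -592 to 1790 (chr5:121412164-121414546) had levels of 7.91 and 8.60, a change of 0.69 that exceeded 19.9% of the table and lay below the median (-0.18). The whole PHF19 region of LOX lay inside it. EGLN3 and ADM had no listed MTF2 region although both had MTF2 peaks.

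**Figure D1:**
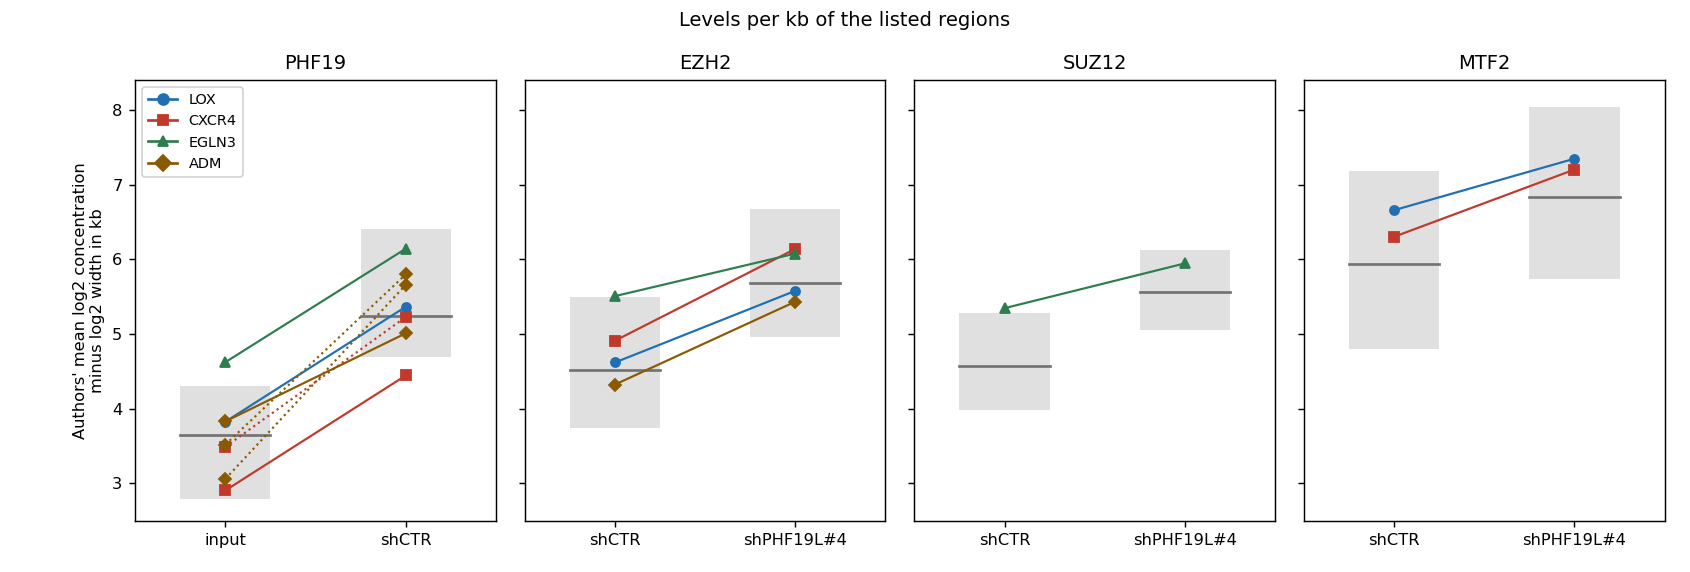
Each line joins the authors' mean log2 concentration per kb of a region in the groups of its table (input and shCTR for PHF19, shCTR and shPHF19L#4 for the others); dotted lines are further PHF19 regions of the same gene, grey boxes span the 5th to 95th percentile of the table and the grey bar is its median. EGLN3 starts above the other genes for PHF19 input (4.62) and for EZH2 in shCTR cells (5.51), and its EZH2 line rises least.

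The order of the genes by level per kb differed between PHF19 and EZH2. For PHF19 at the region nearest the start the order was EGLN3 at 6.14, LOX at 5.36, ADM at 5.01 and CXCR4 at 4.44, all log2 per kb. The intronic PHF19 region of CXCR4, which lies wholly inside its EZH2 region, had 5.23, and the distal and next regions of ADM had 5.66 and 5.80, so the order below EGLN3 depended on the region taken. For EZH2 in shCTR cells it was EGLN3 at 5.51, CXCR4 at 4.91, LOX at 4.62 and ADM at 4.32, and in shPHF19L#4 cells CXCR4 at 6.14, EGLN3 at 6.08, LOX at 5.58 and ADM at 5.43. CXCR4 and EGLN3 changed places, by a margin that cannot be set against a spread because no value per replicate is given.

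**Figure D2:**
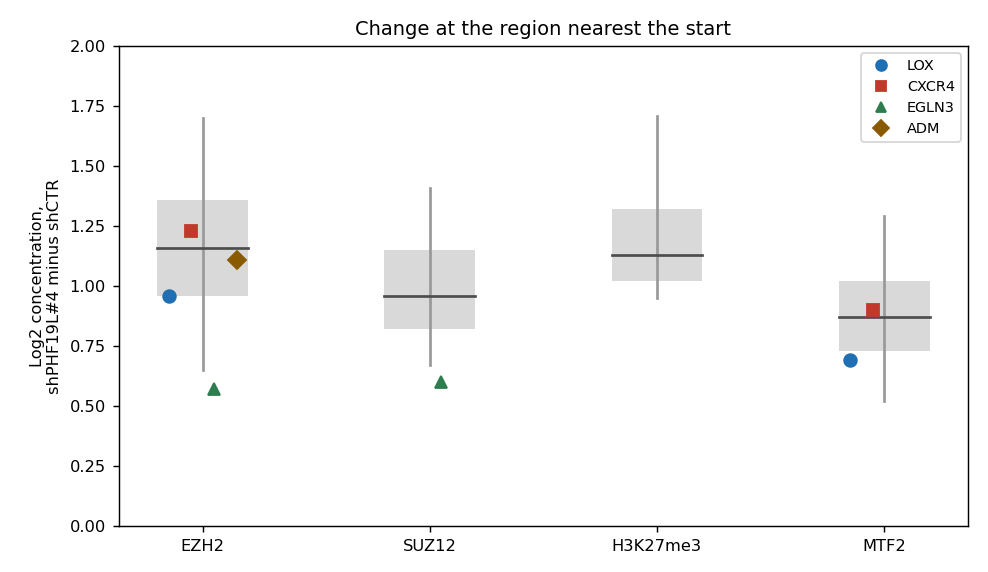
The change in log2 concentration, shPHF19L#4 minus shCTR, at the region nearest the start is plotted for each gene; grey boxes span the 25th to 75th percentile of each table, lines the 5th to 95th, and the dark bar is the median. Both EGLN3 points (0.57 for EZH2 and 0.60 for SUZ12) lie below the 5th percentile, the other points lie within the lines, and the H3K27me3 table holds none of the 4 genes.

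H3K27me3 was present at these genes in both conditions, but none of the 4 had a region in the table of changed H3K27me3, which held 1049 regions and reached 4.39% of protein-coding genes and 9.28% of those with a PHF19 region. Of these 1049 regions, 1048 were higher in shPHF19L#4 cells. A gene without a region is one where no region passed the authors' threshold, and its change is not known from the table. H3K27me3 peaks in both shCTR replicates were found at EGLN3, ADM and CXCR4, that is 3 of 4 genes, against 16.2% of protein-coding genes and 88.7% of those with a PHF19 region. In shPHF19L#4 cells the same 3 genes had a peak in both replicates, against 23% and 89.9%. From 2.5 kb upstream to the gene end, the count was 2 in shPHF19L#4 cells, without ADM, and 3 in shCTR cells. No share of all genes was computed for this reach. ADM had no peak there in shPHF19L#4 replicate 1, whereas shPHF19L#4 replicate 2 had a peak from 331 to 2657. LOX had a peak in replicate 2 alone, in either condition.
At EGLN3 peaks of H3K27me3 covered 69.2% and 27.4% of the interval in shCTR replicates 1 and 2, and 45.7% and 44.6% in shPHF19L#4 replicates 1 and 2. The mean was 48.3% ± 29.6 (SD, n = 2) in shCTR and 45.2% ± 0.776 (SD, n = 2) in shPHF19L#4 cells, a difference well inside the spread of the shCTR replicates. The peak over the start ranked above 95.1% and 98.6% of the shCTR lists and 98.6% of the list of shPHF19L#4 replicate 2. In shPHF19L#4 replicate 1 no peak lay within 8852 bp of the start, although peaks upstream and in the gene body were listed.
At ADM the covered share was 49.0% and 33.7% in shCTR cells and 25% and 48.7% in shPHF19L#4 cells. A peak over the distal PHF19 region was present in all 4 libraries, with its upstream edge between -10862 and -10637. No H3K27me3 peak covered the ADM start itself in any library.
At CXCR4 the covered share was 48.6% and 17.5% in shCTR cells and 33.0% and 38.6% in shPHF19L#4 cells, and peaks lay on both sides of the start in all 4 libraries. At LOX it was 0% and 3.77% in shCTR cells and 0% and 7.73% in shPHF19L#4 cells. This was the lowest covered share of the interval among the 4 genes in each library. Within 2.5 kb of the start, ADM was lower than LOX in shCTR replicate 2, at 21.7% against 26.4%. In that window LOX, EGLN3 and ADM all had 0% in shPHF19L#4 replicate 1. In replicate 2 the LOX peak ranked above 34.2% of the shCTR list and 85.6% of the shPHF19L#4 list, each on its own scale.
In the unscaled shares the replicates moved in opposite directions. From shCTR to shPHF19L#4 the covered share fell by 23.5 percentage points at EGLN3, fell by 24.1 at ADM and fell by 15.6 at CXCR4 in replicate 1, and it rose by 17.2, 15.0 and 21.1 points in replicate 2. The share of the genome under peaks moved the same way, from 3.50% to 3.13% in replicate 1 and from 0.983% to 5.15% in replicate 2. Divided by the share of the genome under peaks in the same library, the covered share of replicate 1 was again lower in shPHF19L#4 than in shCTR cells, at 14.6 against 19.8 for EGLN3, 7.98 against 14.0 for ADM and 10.5 against 13.9 for CXCR4. In replicate 2 the genome share grew 5.24-fold, and EGLN3 and ADM would have needed 144% and 177% of the interval under peaks to keep their shCTR ratio, so their ratios had to fall and say nothing about direction. CXCR4 would have needed 91.7%, close to that limit, and its ratio went from 17.8 to 7.50.

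MTF2 peaks in both shCTR replicates were found at 2 of 4 genes, CXCR4 and EGLN3, against 6.4% of protein-coding genes and 68.8% of those with a PHF19 region. In shPHF19L#4 cells LOX joined them, giving 3 of 4 genes against 11.8% and 86.3%. Replicate 2 listed all 4 genes in both conditions, in lists that reached 55.7% and 56.6% of protein-coding genes.
The LOX start was covered by an MTF2 peak in both shPHF19L#4 replicates and in shCTR replicate 2. Peaks covered 0% and 6.28% of its interval in shCTR cells and 6.80% and 7.06% in shPHF19L#4 cells. Both shPHF19L#4 values were above both shCTR values, but the means differed by less than the SD of the shCTR replicates.
The CXCR4 start was covered in all 4 libraries, and the covered share was 16.2% and 15.5% in shCTR cells and 16.3% and 24.3% in shPHF19L#4 cells. At EGLN3 it was 8.76% and 26.7% in shCTR cells and 20.5% and 25.8% in shPHF19L#4 cells, which overlap between the groups. At ADM it was 0% in replicate 1 of both conditions and 31.9% and 36.7% in replicate 2 of shCTR and shPHF19L#4 cells, so the replicate mattered more than the condition. The MTF2 lists covered 0.193% and 1.5% of the genome in shCTR cells and 0.354% and 1.91% in shPHF19L#4 cells.

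**Figure D3:**
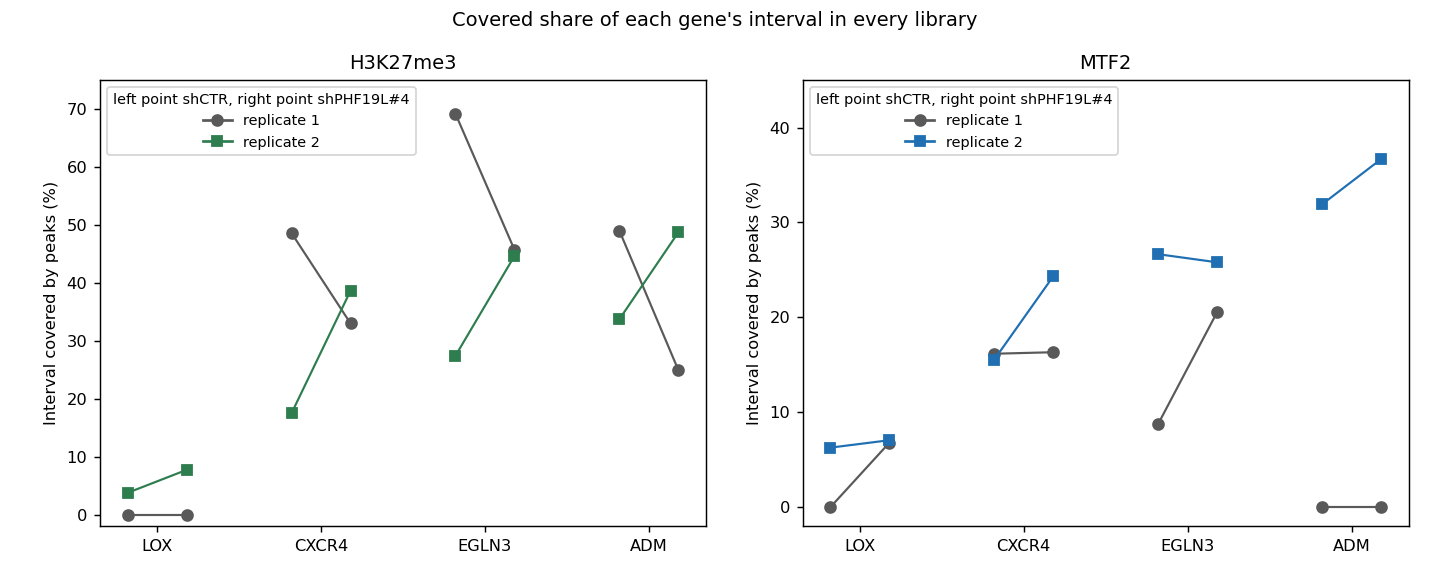
The percentage of each gene's interval covered by H3K27me3 peaks (left) and MTF2 peaks (right) is shown for every library, with a line joining shCTR to shPHF19L#4 of the same replicate number. The H3K27me3 lines of CXCR4, EGLN3 and ADM fall in replicate 1 and rise in replicate 2, and ADM has MTF2 peaks in replicate 2 alone.

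EZH2 peaks in both shCTR replicates were found at CXCR4 alone, 1 of 4 genes against 2.54% of protein-coding genes and 43.5% of those with a PHF19 region, and they ranked above only 10.8% and 18.1% of their lists. SUZ12 peaks in both replicates were found at 0 of 4 genes, against 0.293% and 5.71%. All 4 genes had a listed EZH2 region, whereas LOX and ADM had no EZH2 peak in either shCTR list. The study pooled the peaks of both conditions for its EZH2 and SUZ12 comparisons, so a listed region need not have a peak in shCTR cells. EZH2 and SUZ12 lists of shPHF19L#4 cells were not analysed here.
The absence of EZH2, SUZ12 and MTF2 peaks at the start in replicate 1 was not particular to EGLN3. ADM had none of these peaks in replicate 1, and LOX had none in shCTR replicate 1. What set EGLN3 apart in replicate 1 was EZH2 and SUZ12 peaks far inside the gene body. In that replicate EZH2 had 4 peaks and SUZ12 had 3 peaks in the gene body, the nearest 12025 bp and 8690 bp from the start, and none at the start, where both tables list a region. MTF2 peaks of replicate 1 also left out the EGLN3 start, with the nearest at 6876 bp in shCTR and 6593 bp in shPHF19L#4 cells, whereas MTF2 peaks of replicate 2 covered it in both conditions. The start is also where input per kb exceeded 99.2% of the PHF19 table, and the part of input in these gaps was not tested. PHF19 itself had a peak over the EGLN3 start in both replicates.
The study's ChIP-qPCR site at EGLN3 falls in this area. Its primers, agggacaggaggaagctgat and aattgccctggagtacatcg, enclose 252 bp of exon from 360 to 611 (chr14:34419669-34419920). This stretch lay inside the PHF19, EZH2 and SUZ12 regions of the tables and under a peak in 7 of 14 lists.

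Over their whole width, 5.85 kb for PHF19 and 10.7 kb for EZH2, the regions of EGLN3 were the poorest in CpG among these genes. The PHF19 region of LOX held 6.77 CpG per 100 bp and that of EGLN3 2.70, against a table median of 5.14. At CXCR4 the upstream region held 4.88 and the intronic one 7.17, and at ADM the regions held 4.36, 4.42 and 6.45 from the distal one to the one at the gene. CpG density at ADM was thus highest in the region with the smallest PHF19 difference over input. For EZH2, LOX, CXCR4 and ADM held 6.51, 6.60 and 6.38 CpG per 100 bp and EGLN3 1.99, against a median of 5.10. In the central 500 bp the order differed. There the PHF19 regions nearest the start held 12.2 CpG per 100 bp at LOX, 10.6 at EGLN3, 7.6 at ADM and 5.8 at CXCR4, against a median of 6 for the same part over the table. The EZH2 regions held 10.4 at LOX, 9 at CXCR4, 6.6 at ADM and 5.2 at EGLN3, against a median of 8, and the SUZ12 region of EGLN3 held 9.4, against 9.6. In the 250 bases before the start, EGLN3 held 9.2 CpG per 100 bp, CXCR4 9.6, ADM 6.4 and LOX 5.2, against a median of 7.2 over all promoters.

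**Figure D4:**
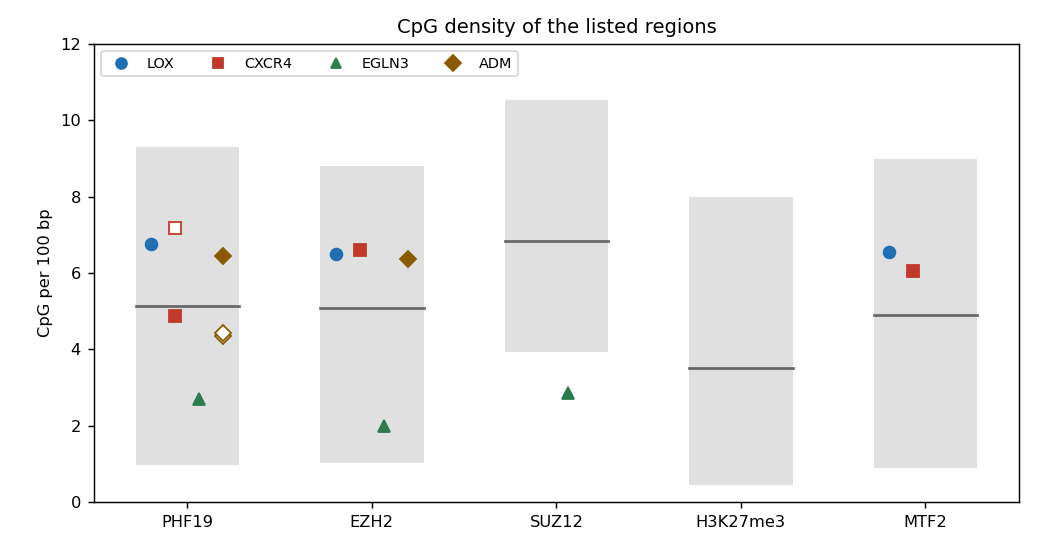
CpG per 100 bp is shown for every region of the 4 genes by table, with filled points for the region nearest the start and open points for further regions; grey boxes span the 5th to 95th percentile of each table and the bar is its median. Over whole regions EGLN3 is the lowest of the 4 genes for PHF19 (2.70) and EZH2 (1.99) and the only one listed for SUZ12 (2.87), and LOX and ADM at the start lie above the median.

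Among 111 other genes of oxygen sensing, HIF signalling, vessel growth and related responses, 12 (10.8%) had a PHF19 region, against 5.14% of all protein-coding genes, and 20 (18.0%) an EZH2 region, against 10.8%. A SUZ12 region was listed at 7 (6.31%, against 2.71%), an H3K27me3 region at 8 (7.21%, against 4.39%) and an MTF2 region at 16 (14.4%, against 10.2%), while 86 had none. These shares were not tested. All listed EZH2, SUZ12, H3K27me3 and MTF2 regions nearest the start of these genes were higher in shPHF19L#4 cells, as were nearly all regions of the tables. The median EZH2 change was 1.21, against 0.57 at EGLN3 and 1.23 at CXCR4. The HIF prolyl hydroxylases EGLN1 and EGLN2 and the ubiquitin ligase subunit VHL had no region, and HIF1AN, the asparaginyl hydroxylase of HIF, had a PHF19 region 5462 bp from its start with a log2 difference over input of 1.22. Among HIF subunits EPAS1 had a PHF19 difference of 1.43 and an EZH2 change of 1.37, ARNT2 and HIF3A had EZH2 changes of 1.40 and 1.07, against a table median of 1.16, and HIF1A and ARNT had no region.
CXCL12, the ligand of CXCR4, had no listed region. RAMP1 and RAMP2, which pair with the receptor for adrenomedullin and related peptides, had EZH2 changes of 1.65 and 1.55, above the 1.11 of ADM. Of the remaining ligands and receptors on the list, ACKR3 had an EZH2 change of 1.35. CALCRL, RAMP3, ADM2, CALCA and CALCB had no listed region. None of the other lysyl oxidases of the list had a region. The collagen genes COL4A1 and COL4A2 share 1 PHF19 region over their adjoining starts, with a difference over input of 2.05 and an EZH2 change of 1.21, against 1.54 and 0.96 at LOX. Of the vessel growth genes, FLT4, NRP2 and PDGFA had PHF19 differences of 2.44, 2.15 and 2.10, and PDGFA had the top H3K27me3 change of the list, 1.47. The remaining PHF19 differences were 3.12 at BHLHE41, 1.99 at IGFBP3, 2.31 at RORA, 1.25 at KDM4B and 1.14 at NOS3, with those of RORA and KDM4B 635198 and 150247 bp from the start. The other RORA regions were also far from its start, at 634530 bp (EZH2), 636035 bp (SUZ12), 70894 bp (H3K27me3) and 620790 bp (MTF2). The H3K27me3 region of NOS2 lay 33404 bp from its start. SUZ12 changes reached 1.13 at COL4A1 and COL4A2, 1.07 at PDGFA, 0.87 at IGFBP3 and 0.69 at FLT4 and RORA, against 0.60 at EGLN3. H3K27me3 changed by 1.39 at ANGPT1, 1.33 at RORA, 1.04 at NOS2 and 1.01 at TGFB3. MTF2 changed by 1.11 at RAMP1 and RORA, 1.09 at PDGFA, 1.07 at RAMP2 and 1.04 at IGFBP1, against 0.90 at CXCR4 and 0.69 at LOX.

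Genes with the nearest set of log2 levels were found for each of the 4 by Euclidean distance over the group means of the tables that list it. These levels were not taken per kb, so region width entered the distance. The EZH2 region of EGLN3 was wider than 98.2% of the listed EZH2 regions. LOX was nearest to MCC at 0.25, C4orf19 at 0.41 and VAX2 at 0.49, over 6 group means and 815 candidate genes. CXCR4 was nearest to GSX2 at 0.51 and HELT at 0.52, over the same number of means, with a further unnamed gene that shares the regions of GSX2. ADM was nearest to OTX1 at 0.40 and to H1-5 and H2BC17, which share regions, at 0.53, over 4 means and 881 candidates. EGLN3 had no gene as close: FOXL2 and FOXL2NB, which share regions, were at 0.96 and TUBB2B at 0.97, over 6 means and 413 candidates. The median distances were 2.52 for LOX, 2.89 for CXCR4, 2.59 for ADM and 3.56 for EGLN3. At FOXL2 the EZH2 level was 9.02 and 10.02, a change of 1.00, and at TUBB2B it was 8.72 and 9.50, a change of 0.78, against 0.57 at EGLN3. The means of both groups entered the distance, so these changes are not independent of how the genes were picked. The genes of the hypoxia and vessel list with EZH2 levels from 5.20 to 5.41 per kb in shCTR cells changed by 0.71 at BHLHE41, 0.81 at RORA (634530 bp from the start), 1.02 at IGFBP3, 1.21 at COL4A1 and COL4A2, 1.25 at FLT4 and 1.64 at PDGFA.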

How the data were processed

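Per the labels and the study's methods, reads were mapped with Bowtie to hg19, or to hg19 with the fly genome dm3 for samples with fly chromatin, keeping reads with 1 place, and peaks were called with MACS (shift size 100 bp) on each replicate against its control. Versions were not given in the sources used here. The score of each peak is the value the authors deposited, on a scale of its own in each list: a number named as tags for PHF19 replicate 1, the MACS score elsewhere, and absent in the MTF2 lists of replicate 1. The log2 values are mean concentrations per group that the authors made with DiffBind and deposited for regions with p under 0.05 (PHF19 against input, with the replicate as a block, also by FDR). The methods name the inputs corresponding to the replicates, and no scaling to fly reads is named for these tables. The labels name the fly antibody for replicate 1 of EZH2 and SUZ12, replicate 2 of PHF19 and both replicates of H3K27me3 and MTF2. The tables' columns of fold, P value and FDR hold the authors' own comparisons and were not used.

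From these files, regions and peaks overlapping by at least 1 bp the interval from 20 kb upstream of the start to the gene end were taken for each gene (Ensembl canonical transcript, GENCODE release 44 on GRCh37). Changes are shPHF19L#4 minus shCTR, levels per kb subtract the log2 width in kb, and covered shares are percentages of the interval. No test was run. Named genes were the 4 members and the 3 nearest in levels. Of the 111 pathway genes, all with a PHF19 region and the 5 with the largest change in each other table were named. HIF3A, ACKR3 and some genes with no listed region were named outside this rule. Members and lists were chosen with earlier results of these data known. Alternatives changed the reach (2.5 kb), the overlap (50%), the lowest score (100), the replicates used, the region taken, the centring of changes, the scaling of covered shares and the part of a region in which CpG was counted (500 bp). The interval code was tested on simulated data. Python 3.11.15, numpy 2.4.6, pysam 0.24.0, samtools 1.23.1 and matplotlib 3.10.9 were used. Depth is unknown, so no counting interval is given.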

Additional observations from a re-analysis of the deposited data

How the results depend on the processing

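All 20 alternative counts of genes with a listed region equalled the main ones, and 47 of 56 counts of genes with a peak in both replicates stayed within 1.5 times. The score of at least 100 could be applied to replicate 2 alone for PHF19 and MTF2, so their counts under it show little. For EZH2 the count of 1 became 0 with a score of at least 100 and 2 with a peak in either replicate, and ranged from 1 to 2 with a replicate left out. For SUZ12 the count of 0 ranged from 0 to 1 and was 1 with either replicate. No share of all genes was computed within 2.5 kb of the start. There the count was 1 (CXCR4) for H3K27me3 in shPHF19L#4 and 1 (CXCR4) for MTF2 in shCTR cells. The latter ranged from 2 to 4 with a replicate left out and was 4 with either replicate.
With the table median subtracted, EZH2 changes were -0.20 at LOX, 0.07 at CXCR4, -0.59 at EGLN3 and -0.05 at ADM, SUZ12 was -0.36 at EGLN3, and MTF2 was -0.18 at LOX and 0.03 at CXCR4. These shifts follow from the subtraction. The widest region, all regions and the whole gene record (chosen after seeing the data) gave the same EZH2, SUZ12 and MTF2 changes by construction, since each gene listed in one of these tables had 1 region there, and say nothing about stability.
For H3K27me3 the difference in covered share ranged with a replicate left out from -15.6 to 21.1 points at CXCR4, from -23.5 to 17.2 at EGLN3 and from -24.1 to 15.0 at ADM, and for MTF2 from -0.856 to 11.8 at EGLN3. Divided by the genome share of the same library, the mean for H3K27me3 was -1.17 at LOX, from replicate 2 alone, and -6.83 at CXCR4, both positive before, and -12.2 at EGLN3 and -15.4 at ADM, negative before as well. At EGLN3 and ADM the replicate 2 part of this mean was bound to be negative, because the genome share grew 5.24-fold and a covered share cannot pass 100%; replicate 1 alone gave -5.17 and -6.04, and CXCR4 gave -3.35 and -10.3 in replicates 1 and 2. For MTF2 the scaled mean was -17.6 at CXCR4, 9.36 at LOX and 4.23 at EGLN3, but the replicates had opposite signs, with -37.6 and 2.43 at CXCR4, 19.2 and -0.469 at LOX and 12.6 and -4.18 at EGLN3 in replicates 1 and 2. At ADM it was -0.985, from replicate 2 alone. From 2.5 kb upstream, H3K27me3 gave 15.2 at CXCR4, -12.7 at EGLN3, -9.70 at ADM and 3.95 at LOX, and MTF2 gave 16.9 at CXCR4, 13.4 at EGLN3, 7.56 at LOX and 0 at ADM. The cause of these shifts was not tested. The 0 at ADM is no measure of change. MTF2 peaks covered all of its shorter interval in replicate 2 of both conditions and none of it in replicate 1. CpG density was higher in the central 500 bp of 11 of 11 regions nearest a start, at 5.2 to 12.2 per 100 bp, and in the further PHF19 regions, at 8.8 in CXCR4 and 4.6 and 6.6 in ADM.
No paired analysis was possible because the tables hold pooled means and no result comes from a test, except that covered shares have a value per library. Their 2 differences between libraries of the same replicate number are given as values, with an SD for H3K27me3 of 28.8 points at EGLN3, 27.6 at ADM, 26.0 at CXCR4 and 2.80 at LOX. Depth is unknown, the lists differ widely in length between replicates, and tables hold only regions past the authors' threshold, so absence from a table or list does not show absence of the protein.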

Other observations

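The annotation also holds EGLN3 transcripts that start further upstream than the transcript used above, so that the whole gene record begins 511.7 kb before it. This stretch was looked at after the data were seen. In the 491.7 kb of the record beyond the interval, H3K27me3 peaks covered 31.5% and 19.4% in shCTR replicates 1 and 2 and 25.7% and 28.5% in shPHF19L#4 replicates 1 and 2. MTF2 peaks covered 11.6% and 17.7% in shCTR cells and 7.21% and 21.2% in shPHF19L#4 cells. EZH2 and SUZ12 each had 15 peaks there in shCTR replicate 1 and 0 in replicate 2. PHF19 had 5 and 28 peaks in replicates 1 and 2, which covered 1.45% and 15.3% of the stretch, against 0.0689% and 0.543% of the genome. Its table listed 1 region, the far edge of which lay 219 kb from the start used above. The EZH2, SUZ12, H3K27me3 and MTF2 tables listed 0 regions there. EGLN3 thus sits at the end of a long stretch with H3K27me3 peaks in all 4 libraries, in which none of the tables of changed regions had an entry. Input over this stretch was not examined, and its part in these peaks was not tested.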
